A study of Mus musculus with 12 samples.

Results

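Interscapular brown adipose tissue (iBAT) of mice on a high-fat diet (HFD) was compared between 24 h at 4 °C and 22 °C. The comparison used every library whose labels gave HFD, 3 at 4 °C and 3 at 22 °C, which are 6 of the 12 iBAT libraries of the series. All mice were wild type C57BL/6N, 20 weeks old at dissection, and no transgene or Cre was involved. The HFD mice had been fed for 12 weeks on Ssniff D12492 (I) mod., and the other 6 libraries came from mice of the same age and strain on control diet (NCD), again 3 at 4 °C and 3 at 22 °C. Total RNA depleted of ribosomal RNA was sequenced as paired-end reads to find genes, in particular long non-coding RNA (lncRNA) genes, that respond to activation of iBAT. The comparison described here asks which genes cold changed in mice that had been on HFD.

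Brown adipocytes burn fatty acids and glucose to produce heat. In the cold, noradrenaline from sympathetic nerves acts on β-adrenergic receptors, adenylyl cyclase raises cAMP, stored triglycerides are hydrolysed, and the fatty acids both fuel mitochondria and open uncoupling protein 1 (UCP1), which lets protons return across the inner membrane without making ATP. The tissue refills its lipid stores from circulating lipoproteins and by making new fatty acids, and a high-fat diet supplies fatty acids that would otherwise have to be made.

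The 6 HFD libraries held 15136861 to 37257097 counts, and Spearman's correlation across genes was 0.964 to 0.986 among those at 22 °C and 0.968 to 0.981 among those at 4 °C. All 8 brown adipocyte markers were expressed, and Ucp1 alone had at least 5994 CPM (the count scaled, with TMM factors, to a library of 1000000 counts) in each library, as the label iBAT requires. One library stood apart. In HFD 22 °C replicate 3 the 30 skeletal muscle markers took 7.13% of the counts, against 0.559% and 0.52% in the other libraries at 22 °C and 0.164%, 0.212% and 1.35% at 4 °C. Of these 30 genes 0 passed the test described below, with the replicate block 23 were lower, their median log2 fold change was -1.78 and their groups of libraries overlapped in summed CPM. The labels place replicate 3 of every group in a batch apart from replicates 1 and 2, so every comparison is balanced over the batches, and the second batch holds 1 library per group. Such bulk values cannot tell fewer cells of a type from less RNA per cell. The strand of the reads in counting is not given in the sources used here, so values of antisense and overlapping genes are uncertain.

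Cold changed 1603 of 16737 genes tested on HFD, 9.58% of them. Of these, 902 were higher at 4 °C (5.39% of genes tested) and 701 lower (4.19%). A gene was counted when its adjusted p was under 0.05 (quasi-likelihood test of edgeR, adjusted by Benjamini-Hochberg over all genes tested) and its log2 fold change was over 0.5 in size. The count was 1013 without HFD 4 °C replicate 1. The count of lower genes was 310 without HFD 4 °C replicate 1, 391 without HFD 4 °C replicate 3, 386 without HFD 22 °C replicate 1 and 417 without HFD 22 °C replicate 2. With the replicate number as a block, 1023 genes were higher and 1130 lower, so that 47.5% of the called genes were higher against 56.3% without it. With HFD replicates 1 and 2 alone, without the library rich in muscle transcripts and its partner, 391 genes were higher and 304 lower. A change of more than 4-fold was found for 118 of the higher and 76 of the lower genes. In 1591 of the 1603 genes the libraries at 4 °C and at 22 °C did not overlap, and this held for 30.3% of all genes tested. In the gene groups below, the counts are read against 5.39% and 4.19%, and a group is described by how many members passed and by its median log2 fold change, which was -0.04 over all genes tested.

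**Figure D1:**
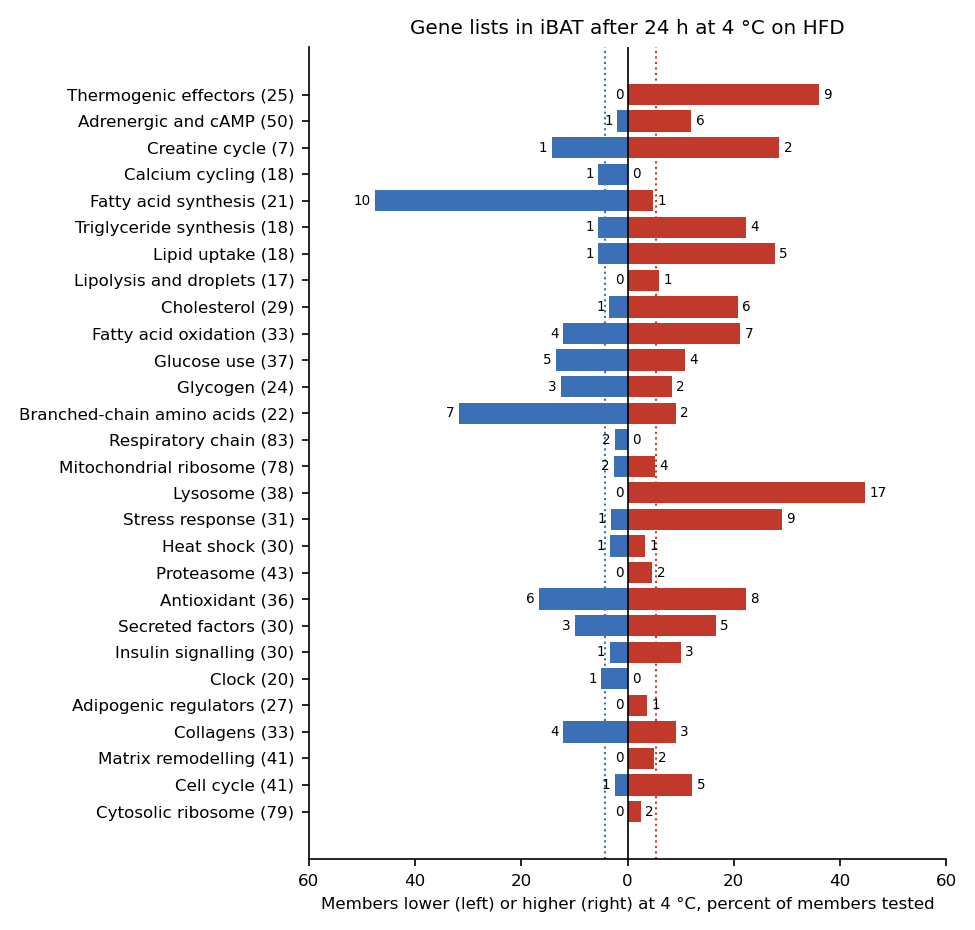
Percent of the tested members of 28 gene lists that were lower (blue, to the left) or higher (red, to the right) at 4 °C than at 22 °C on HFD. Numbers at the bars count the members, those in brackets the members tested, and dotted lines mark the shares over all genes tested, 4.19% lower and 5.39% higher. The lysosomal list had the most higher members (17 of 38) and the fatty acid synthesis list the most lower ones (10 of 21).

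Among coding genes, those with the largest rises were a heterogeneous set, and several were barely expressed at 22 °C. Acot5, which encodes a peroxisomal acyl-CoA thioesterase (QNCMUSG00012082, chromosome 12, 84069325 to 84076020, plus strand), had counts of 0, 0 and 1 (22 °C) and of 140, 44 and 264 (4 °C). This was 357-fold higher, with a 95% counting interval of 63.8 to 14100 (edgeR adjusted p = 0.00105). Kcnh6, a voltage-gated potassium channel, had 0.0644, 0.157 and 0.141 CPM at 22 °C and 17.2, 8.32 and 12.0 CPM at 4 °C (log2 fold change 6.57 ± 0.81 (SE), edgeR adjusted p = 0.00171). Genes were named for the size of their change only when their groups did not overlap, here and in the next paragraph. Pigr, the receptor that carries immunoglobulins across epithelia, had 0, 0.0523 and 0.113 CPM at 22 °C and 7.11, 2.91 and 6.85 CPM at 4 °C (log2 fold change 6.28, edgeR adjusted p = 0.00139). Epn3, an endocytic adaptor, had 0.193, 0.105 and 0.169 CPM at 22 °C and 6.98, 2.33 and 7.95 CPM at 4 °C (log2 fold change 5.16, edgeR adjusted p = 0.000463). Tacr2, the neurokinin A receptor, had 0.129, 0.314 and 0.0847 CPM at 22 °C and 6.75, 4.01 and 7.04 CPM at 4 °C (log2 fold change 5.13, edgeR adjusted p = 0.000354). In each of these genes replicate 2 was the lowest library at 4 °C. Sult4a1, a sulfotransferase family member, had 0, 0.209 and 0.0847 CPM at 22 °C and 2.66, 1.85 and 6.36 CPM at 4 °C (log2 fold change 5.12, edgeR adjusted p = 0.00322). Itih4, an inter-alpha-trypsin inhibitor heavy chain, had 1.29, 1.78 and 1.13 CPM at 22 °C and 10.3, 28.4 and 46.2 CPM at 4 °C (log2 fold change 4.35, edgeR adjusted p = 0.00105). The rise of Itih4 was spread widely among the cold libraries, with replicate 1 lowest. Cxcl13, a chemokine that attracts B cells, had 0.129, 0.209 and 0.0282 CPM at 22 °C and 6.93, 0.264 and 1.03 CPM at 4 °C (log2 fold change 4.59, edgeR adjusted p = 0.0274). One library, HFD 4 °C replicate 1, carried most of its rise, and the call was lost without HFD 4 °C replicate 1 or HFD 22 °C replicates 1, 2 or 3, with log2 fold changes between 2.59 and 5.33 over the 12 fits that left out 1 library each. All other genes of this paragraph passed in each of the 12 fits, and the remaining large rises, Scd3 and Mfsd2a, are described with their pathways.

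The largest falls among coding genes began with Slc2a5, which encodes the fructose transporter GLUT5 (QNCMUSG00040725, chromosome 4, 150119283 to 150144169, plus strand). It had 38.7, 23.5 and 18.5 CPM at 22 °C and 0.585, 0.748 and 0.629 CPM at 4 °C, a 40.8-fold lower level (log2 fold change -5.35 ± 0.45 (SE), edgeR adjusted p = 0.000168). Atp4b, the beta subunit of the gastric proton pump, had 5.09, 3.40 and 2.65 CPM at 22 °C and 0.135, 0.176 and 0.140 CPM at 4 °C (log2 fold change -4.58 ± 0.40 (SE), edgeR adjusted p = 0.000168). The cold libraries of both genes lay close together and far below those at 22 °C. Sorcs2, a sortilin-type receptor that binds pro-neurotrophins, had 57.3, 21.9 and 39.9 CPM at 22 °C and 3.51, 3.48 and 2.89 CPM at 4 °C (log2 fold change -3.60, edgeR adjusted p = 0.000787). Ntrk3, the receptor of neurotrophin-3, had 510.5, 312 and 324 CPM at 22 °C and 28.2, 70.6 and 22.5 CPM at 4 °C (log2 fold change -3.24, edgeR adjusted p = 0.00229). Both neurotrophin-related receptors were thus among the largest falls, and Ntrk3 was the most abundant gene of this paragraph. Fer1l6, a ferlin, had 23.6, 11.9 and 18.4 CPM at 22 °C and 1.67, 1.85 and 1.38 CPM at 4 °C (log2 fold change -3.47, edgeR adjusted p = 0.00129). Slc15a5, a member of the proton-coupled oligopeptide transporter family, had 3.09, 1.62 and 2.74 CPM at 22 °C and 0.360, 0.264 and 0.117 CPM at 4 °C (log2 fold change -3.39, edgeR adjusted p = 0.000652). Sh3gl3, an endophilin, had counts of 15, 19 and 28 (22 °C) and of 3, 1 and 1 (4 °C), a level 15.5-fold lower with a 95% counting interval of 6.32 to 49.5 (edgeR adjusted p = 0.00653). These genes passed in each of the 12 fits that left out 1 library, and Acly and Lep, the other large falls, are described below. Aqp4, a water channel that fast skeletal muscle fibres also carry, had 1.93, 2.14 and 20.7 CPM at 22 °C and 0.405, 0.616 and 0.420 CPM at 4 °C (log2 fold change -4.13, edgeR adjusted p = 0.0343). Its highest value came from the library with 7.13% muscle markers, and the call was lost without HFD 4 °C replicates 1, 2 or 3 or HFD 22 °C replicate 3, with log2 fold changes between -4.57 and -2.09.

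Of 25 thermogenic effectors and genes of brown adipocyte identity, 9 were higher at 4 °C, 0 were lower and 16 did not pass. The median log2 fold change was 0.49, with 19 of the 25 above 0. Ucp1 (QNCMUSG00054026, chromosome 8, 83290352 to 83298452, plus strand) had 7966, 7105 and 5994 CPM at 22 °C and 11625, 15194 and 13150.5 CPM at 4 °C, a 1.9-fold rise (log2 fold change 0.92 ± 0.17 (SE), edgeR adjusted p = 0.00656). Dio2, the deiodinase that makes active thyroid hormone within the tissue, had 85.9, 80.7 and 142 CPM at 22 °C and 666, 648 and 592 CPM at 4 °C (log2 fold change 2.62 ± 0.28 (SE), edgeR adjusted p = 0.000474). Elovl3, which elongates very long chain fatty acids, had 137, 99.9 and 81.6 CPM at 22 °C and 857, 562 and 741 CPM at 4 °C (log2 fold change 2.76 ± 0.25 (SE), edgeR adjusted p = 0.000227). The cold libraries lay above all libraries at 22 °C for each of these genes, and for Dio2 and Elovl3 the gap between the temperatures was wider than the spread within either. Slc27a2, an acyl-CoA synthetase of fatty acid transport, had 85.5, 157 and 144 CPM at 22 °C and 407, 516 and 417 CPM at 4 °C (log2 fold change 1.79, edgeR adjusted p = 0.00122). Kcnk3, a potassium leak channel that is enriched in brown fat, had 213, 254 and 203 CPM at 22 °C and 817, 646 and 532 CPM at 4 °C (log2 fold change 1.57, edgeR adjusted p = 0.00109). The other 4 higher members were Fabp3, Eva1a, Pank1 and Zfp516, of which Eva1a and Zfp516 did not pass in every one of the 12 fits. Cidea, a lipid droplet protein used as a brown fat marker, had 1092, 1123 and 1049.8 CPM at 22 °C and 1485, 1439 and 1674 CPM at 4 °C (log2 fold change 0.49, edgeR adjusted p = 0.0501), which just missed both thresholds although its groups did not overlap. Ppargc1a, the coactivator PGC-1α, had 86.4, 63.7 and 89.8 CPM at 22 °C and 228, 207 and 139 CPM at 4 °C (log2 fold change 1.26, edgeR adjusted p = 0.116) and did not pass either. Cox8b and Cox7a1, the tissue-specific respiratory chain subunits among the brown markers, had log2 fold changes of -0.64 (edgeR adjusted p = 0.075) and -0.33 (edgeR adjusted p = 0.269). With the replicate block Cox8b was lower (-0.67, edgeR adjusted p = 0.0133), and the list held 2 lower members without HFD 4 °C replicate 2, with DESeq2 and with a muscle score (the log2 summed CPM of the skeletal muscle markers in a library) as a term. The higher count was 11 with the replicate block and with DESeq2, and 9 with the muscle score. It ranged from 7 to 11 when 1 library was left out.

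**Figure D2:**
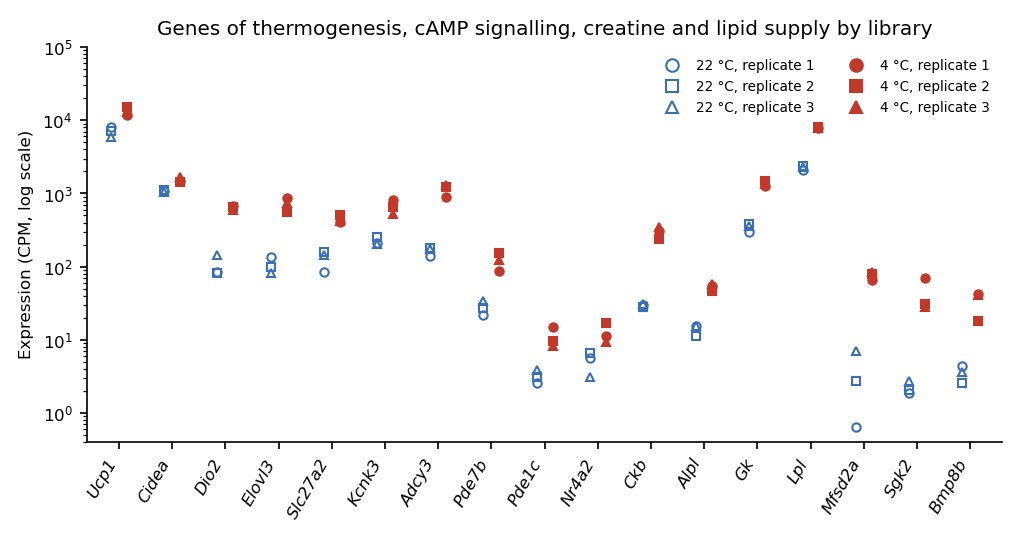
Expression of 17 genes in CPM on a log scale in each HFD library. Open blue symbols are the 3 libraries at 22 °C, filled red symbols the 3 at 4 °C, and the symbol shape gives the replicate number. The genes shown were picked from those with a positive log2 fold change, and falling members such as Adcy10 and Gamt are not drawn. For every gene shown, all libraries at 4 °C lie above all libraries at 22 °C, and Cidea shows the smallest gap.

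Upstream of these effectors, the noradrenaline and cAMP pathway changed at a few members. Of 50 genes for adrenergic receptors, adenylyl cyclases, kinase A subunits, phosphodiesterases and cAMP feedback genes, 6 were higher and 1 lower, and the median log2 fold change was 0.29. Adcy3, the adenylyl cyclase of brown fat that the β-adrenergic receptor drives (QNCMUSG00010553, chromosome 12, 4133103 to 4213525, plus strand), had 142, 178 and 174 CPM at 22 °C and 889.8, 1223 and 1319.6 CPM at 4 °C, a 6.95-fold rise (log2 fold change 2.80 ± 0.19 (SE), edgeR adjusted p = 7.32e-05). Pde7b, a phosphodiesterase that degrades cAMP, had 22.2, 27.5 and 33.9 CPM at 22 °C and 87.0, 152 and 122 CPM at 4 °C (log2 fold change 2.11 ± 0.27 (SE), edgeR adjusted p = 0.00109). Pde1c, a calcium-dependent phosphodiesterase, had 2.58, 3.14 and 3.87 CPM at 22 °C and 15.1, 9.60 and 8.34 CPM at 4 °C (log2 fold change 1.77, edgeR adjusted p = 0.00223). The enzyme that makes cAMP and 2 that remove it were therefore higher in each cold library. Nr4a2, an orphan nuclear receptor induced by cAMP, had 5.60, 6.53 and 3.11 CPM at 22 °C and 11.4, 17.0 and 9.23 CPM at 4 °C (log2 fold change 1.32, edgeR adjusted p = 0.0163). Adcy7 and Adcy4 were the remaining higher members. Adrb3, the β3-adrenergic receptor, had 227, 268 and 271 CPM at 22 °C and 303, 243 and 165 CPM at 4 °C (log2 fold change -0.11, edgeR adjusted p = 0.856), with overlapping groups. The immediate early genes Fos and Egr1 had log2 fold changes of -0.02 (edgeR adjusted p = 0.989) and -1.58 (edgeR adjusted p = 0.352), and with the replicate block Egr1 was lower (-1.19, edgeR adjusted p = 0.0331). The member that fell was Adcy10, the soluble adenylyl cyclase that bicarbonate activates, with 26.4, 20.4 and 13.8 CPM at 22 °C and 5.76, 11.7 and 8.44 CPM at 4 °C (log2 fold change -1.22 ± 0.27 (SE), edgeR adjusted p = 0.0166). Its call was lost without HFD 4 °C replicates 1 or 3 or HFD 22 °C replicate 1, with log2 fold changes between -1.49 and -0.95. The lower count was 3 without HFD 4 °C replicate 2 and 2 without NCD 4 °C replicate 2, and with the replicate block 10 members were higher and 4 lower.

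The promoter of Dio2 is shown because it holds a cAMP response element, the site of factors that kinase A activates. The window runs from 250 bases before to 50 bases after the RefSeq start on GRCm38.p6 (chr12:90738989-90739288, minus strand, bases 156 to 163), and capitals mark the match.
Dio2: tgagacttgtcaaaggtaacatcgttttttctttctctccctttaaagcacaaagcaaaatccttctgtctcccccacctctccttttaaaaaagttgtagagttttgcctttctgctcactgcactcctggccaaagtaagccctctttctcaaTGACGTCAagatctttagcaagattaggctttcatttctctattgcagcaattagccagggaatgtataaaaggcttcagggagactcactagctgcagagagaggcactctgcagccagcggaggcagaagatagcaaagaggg
The letters TGACGTCA, which read the same on both strands, were found in 1.79% of all 32851 such windows and in 2.83% of those of tested genes. The share was 2.46% for genes higher in the cold and 2.69% for lower genes. Among the 11 windows of the higher cAMP pathway genes 0 held these letters, and among the 7 of the higher thermogenic genes 1 did, that of Dio2.

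Creatine cycling, a route of heat production besides UCP1 in which creatine is phosphorylated and dephosphorylated, had 7 tested genes, of which 2 were higher and 1 lower. Ckb, the cytosolic brain-type creatine kinase, had 30.3, 28.3 and 31.1 CPM at 22 °C and 308, 237 and 345 CPM at 4 °C, a 9.92-fold rise (log2 fold change 3.31 ± 0.28 (SE), edgeR adjusted p = 0.000168). Alpl, tissue-nonspecific alkaline phosphatase, which hydrolyses phosphocreatine, had 15.3, 11.3 and 15.6 CPM at 22 °C and 53.7, 46.9 and 58.6 CPM at 4 °C (log2 fold change 1.91 ± 0.17 (SE), edgeR adjusted p = 0.000168). Both genes were higher in every cold library, by more than the libraries of either temperature differed among themselves. Gamt, the last enzyme of creatine synthesis, had 4.25, 3.35 and 3.50 CPM at 22 °C and 1.35, 1.36 and 1.96 CPM at 4 °C (log2 fold change -1.23 ± 0.28 (SE), edgeR adjusted p = 0.0179) and lost its call without HFD 4 °C replicates 1 or 2 or HFD 22 °C replicate 1, with log2 fold changes between -1.43 and -1.09. The muscle creatine kinase gene Ckm had a log2 fold change of -1.92 (edgeR adjusted p = 0.341), and with the replicate block it was lower (-1.76, edgeR adjusted p = 0.000609). The part of the uneven muscle markers in this value was not tested. The lower count of the list was 2 without HFD 4 °C replicate 3. Of 18 genes of calcium cycling, 0 were higher and 1 was lower. Without HFD 4 °C replicate 2 there was 1 higher gene. The lower gene was Itpr2, an IP3 receptor of the endoplasmic reticulum, with 447, 406 and 384 CPM at 22 °C and 225, 297 and 249 CPM at 4 °C (log2 fold change -0.68 ± 0.13 (SE), edgeR adjusted p = 0.00913). With the replicate block, 2 calcium cycling genes were higher and 3 lower, and for the creatine genes 2 were higher and 3 lower.

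The strongest fall of a metabolic group was that of fatty acid synthesis, elongation and desaturation. Of 21 genes tested, 10 were lower and 1 higher, and the median log2 fold change was -0.85. Acly, which makes cytosolic acetyl-CoA from citrate (QNCMUSG00009585, chromosome 11, 100476353 to 100528000, minus strand), had 5452, 2936 and 2964 CPM at 22 °C and 234, 474 and 298 CPM at 4 °C, a 11.3-fold lower level (log2 fold change -3.50 ± 0.36 (SE), edgeR adjusted p = 0.000354). Acaca, acetyl-CoA carboxylase 1 and the committed step, had 6879.8, 4544 and 4397 CPM at 22 °C and 642, 1047 and 648 CPM at 4 °C (log2 fold change -2.76 ± 0.26 (SE), edgeR adjusted p = 0.000285). Fasn, the fatty acid synthase, had 37253, 25229 and 24300.0 CPM at 22 °C and 3002, 6152 and 2595 CPM at 4 °C (log2 fold change -2.88 ± 0.31 (SE), edgeR adjusted p = 0.000489). Every cold library of these genes lay several-fold below the lowest library at 22 °C, and replicate 2 was the least affected. Slc25a1, which exports citrate from mitochondria to supply Acly, had 603, 452 and 408 CPM at 22 °C and 103, 137 and 143 CPM at 4 °C (log2 fold change -1.93 ± 0.22 (SE), edgeR adjusted p = 0.000693). Thrsp, a regulator of lipogenesis, had 1604, 1043 and 1124 CPM at 22 °C and 162, 437 and 354 CPM at 4 °C (log2 fold change -1.98, edgeR adjusted p = 0.00656), and Pnpla3, a protein of lipid droplets, had 242, 171 and 174 CPM at 22 °C and 22.4, 46.8 and 58.7 CPM at 4 °C (log2 fold change -2.20, edgeR adjusted p = 0.00441). The last 2 genes were added to the text after their values were seen. Acss2, Scd1, Me1 and Mlxipl also fell, so the citrate exporter, the enzymes from citrate to palmitate, the NADPH source and the carbohydrate-response factor ChREBP (Mlxipl) were all lower. Srebf1, the other main transcription factor of the pathway, had 362, 431 and 198 CPM at 22 °C and 202, 318 and 509 CPM at 4 °C (log2 fold change 0.05, edgeR adjusted p = 0.94), with overlapping groups. Elovl6, Elovl5, Elovl1, Fads1 and Fads2, which lengthen or desaturate fatty acids, did not pass, with log2 fold changes of -0.18, 0.53, 0.63, 0.45 and 0.45, although with the replicate block Elovl5 (edgeR adjusted p = 0.0334) and Elovl1 (edgeR adjusted p = 0.011) were higher. The higher member was Scd3, a desaturase mainly known from skin, with 0.387, 0.470 and 0.311 CPM at 22 °C and 39.0, 2.73 and 5.27 CPM at 4 °C (log2 fold change 5.34 ± 0.99 (SE), edgeR adjusted p = 0.00691). HFD 4 °C replicate 1 had by far the highest value, and without it the log2 fold change was 3.41. The higher count was 2 without HFD 4 °C replicate 3 or NCD 4 °C replicate 3, and 3 with the replicate block. Acly, Acaca, Fasn, Slc25a1, Thrsp, Pnpla3 and Scd3 passed in each of the 12 fits that left out 1 library.

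**Figure D3:**
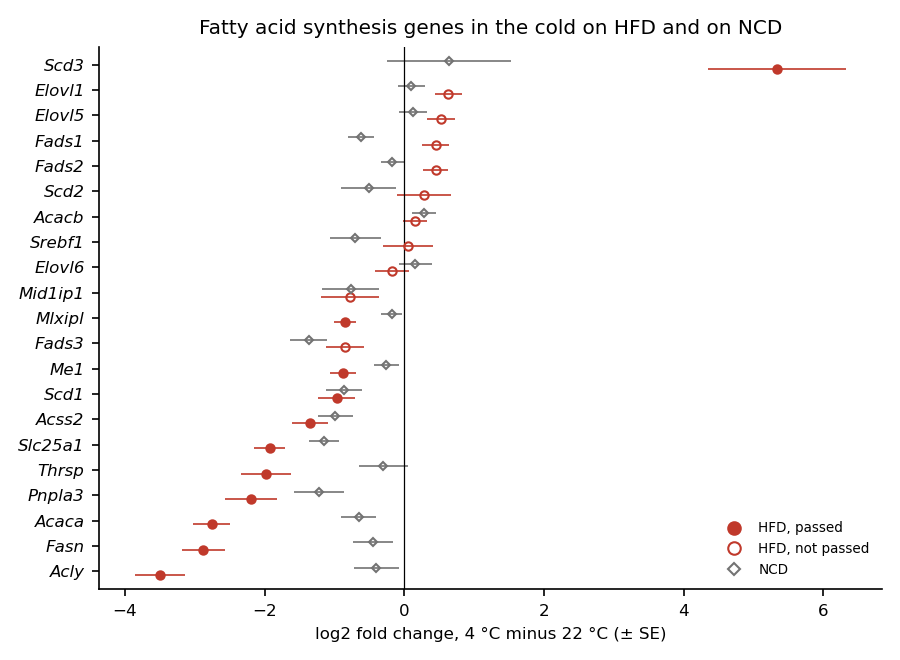
Log2 fold change between 4 °C and 22 °C, with its SE, of the 21 tested genes of fatty acid synthesis, elongation and desaturation on HFD (red circles, filled when past the test) and on NCD (grey diamonds). On HFD Acly, Fasn and Acaca lie at -3.50, -2.88 and -2.76, while on NCD they lie at -0.40, -0.45 and -0.65.

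The same genes were set beside the cold effect on NCD, which was estimated in the same model from the other 6 libraries. Acly had a log2 fold change of -0.40 ± 0.32 (SE) on NCD, Fasn of -0.45 ± 0.29 and Acaca of -0.65 ± 0.25. On NCD 3 of the 21 genes were lower and 0 higher, with a median of -0.45, where 6.27% of all genes tested passed, 3.72% upwards and 2.55% downwards. The difference between the diets did not pass an adjusted p of 0.05 for any gene in edgeR's test of the interaction, in which Acly had an adjusted p of 0.0979, Acaca of 0.16 and Fasn of 0.166. Of all 16737 genes tested 0 passed, and 1091 had an unadjusted p under 0.05. DESeq2's likelihood ratio test, which started from every gene with a count, called 58, and edgeR's test with no filter on counts called 27. In edgeR's main test the smallest adjusted p, 0.0566, belonged to Atp4b, with a log2 fold change of -4.58 on HFD and -0.38 on NCD. Slc2a5 had -5.35 on HFD and -1.29 on NCD (edgeR interaction adjusted p = 0.0646), and Slc15a5 had -3.39 and -0.16 (edgeR interaction adjusted p = 0.0979). Without HFD 4 °C replicate 2 the interaction was passed by 22 genes, without NCD 4 °C replicate 2 by 3, and with the replicate block by 2. Ucp1 rose by 0.92 on HFD and by 1.96 on NCD on the log2 scale, and this difference did not pass either (edgeR interaction adjusted p = 0.475).

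Among 18 genes of lipoprotein lipolysis and fatty acid uptake, 5 were higher, 1 was lower and 12 did not pass, with a median log2 fold change of 0.40. Lpl, the lipoprotein lipase that frees fatty acids from circulating triglycerides, had 2096, 2393 and 2294 CPM at 22 °C and 7776, 8134 and 7781 CPM at 4 °C (log2 fold change 1.80 ± 0.15 (SE), edgeR adjusted p = 0.000168). Mfsd2a, a transporter of lysophospholipids that carry polyunsaturated fatty acids, had 0.644, 2.77 and 7.09 CPM at 22 °C and 66.7, 79.3 and 83.5 CPM at 4 °C (log2 fold change 4.37 ± 0.89 (SE), edgeR adjusted p = 0.0102). For both genes the libraries at 4 °C were nearly level, while Mfsd2a varied widely at 22 °C. Acsl4 and Acsl5, acyl-CoA synthetases, had log2 fold changes of 1.12 (edgeR adjusted p = 0.0042) and 0.87 (edgeR adjusted p = 0.00982), and Acsl3 was the fifth higher member. The member that fell was Slc27a1, the fatty acid transport protein FATP1, with 161, 169.6 and 191 CPM at 22 °C and 114, 109.5 and 95.5 CPM at 4 °C (log2 fold change -0.71 ± 0.12 (SE), edgeR adjusted p = 0.00453). Cd36 and Fabp4, the fatty acid translocase and the adipocyte fatty acid carrier, did not pass, with log2 fold changes of 0.40 (edgeR adjusted p = 0.0591) and 0.17 (edgeR adjusted p = 0.523). With the replicate block 2 genes of the list were lower.

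Triglyceride synthesis had 4 higher and 1 lower of 18 genes and 13 that did not pass, with a median log2 fold change of 0.24. Gk, glycerol kinase, which lets adipocytes reuse glycerol, had 294, 387 and 360.5 CPM at 22 °C and 1245, 1493 and 1358 CPM at 4 °C, a 3.93-fold rise (log2 fold change 1.98 ± 0.17 (SE), edgeR adjusted p = 0.000168). Gpat4 and Gpam, acyltransferases of the first step, had 214, 256 and 246 CPM at 22 °C and 456, 579.9 and 570.5 CPM at 4 °C (log2 fold change 1.17, edgeR adjusted p = 0.000423) and 846, 1207 and 1049 CPM at 22 °C and 1842, 2022 and 1357 CPM at 4 °C (log2 fold change 0.75, edgeR adjusted p = 0.0172) respectively. Dgat1, an enzyme of the last step, had 217, 194 and 188 CPM at 22 °C and 342, 342 and 421 CPM at 4 °C (log2 fold change 0.89, edgeR adjusted p = 0.00163). These acyltransferase genes and Gk were thus higher in each cold library. The summed level of the whole list was 18037.5 to 24207.7 CPM at 22 °C and 16052.2 to 22760.3 CPM at 4 °C, so it overlapped. Gpd2, the mitochondrial glycerol-3-phosphate dehydrogenase that consumes the same precursor, had 2293, 2093 and 1665 CPM at 22 °C and 1143, 1436 and 821 CPM at 4 °C (log2 fold change -0.83, edgeR adjusted p = 0.0235) and lost its call without HFD 4 °C replicates 1 or 3 or HFD 22 °C replicates 1 or 2, with log2 fold changes between -1.04 and -0.64. Pck1, the key enzyme of glyceroneogenesis, had 3263, 2869 and 3224 CPM at 22 °C and 1765, 3049 and 2498 CPM at 4 °C (log2 fold change -0.36, edgeR adjusted p = 0.365).

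Lipolysis and lipid droplet genes had 1 higher and 0 lower of 17, a share of 5.88%. The higher gene was Abhd5 (CGI-58), the activator of adipose triglyceride lipase, with 105, 165 and 124 CPM at 22 °C and 203, 266 and 231 CPM at 4 °C (log2 fold change 0.83 ± 0.17 (SE), edgeR adjusted p = 0.00969). The lipase genes themselves, Pnpla2 and Lipe, had 1409.5, 1393 and 1106 CPM at 22 °C and 913, 1134 and 772 CPM at 4 °C and 1649, 1684 and 1330.0 CPM at 22 °C and 968, 1304 and 955 CPM at 4 °C. They did not pass, at log2 fold changes of -0.47 (edgeR adjusted p = 0.0768) and -0.53 (edgeR adjusted p = 0.0574), and with the replicate block Lipe was lower (-0.54, edgeR adjusted p = 0.0196). With the replicate block 2 genes of this list were higher and 2 lower. It held 2 higher genes without HFD 4 °C replicate 2, NCD 4 °C replicate 2, NCD 4 °C replicate 3 or NCD 22 °C replicate 1, and 2 lower ones without HFD 4 °C replicate 2.

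For cholesterol, 6 of 29 genes were higher and 1 lower, with a median log2 fold change of 0.21. Sqle, squalene epoxidase, had 15.4, 9.72 and 8.33 CPM at 22 °C and 37.1, 31.4 and 27.4 CPM at 4 °C (log2 fold change 1.53 ± 0.21 (SE), edgeR adjusted p = 0.00148), and Hsd17b7, a later enzyme of the same route, had 13.2, 12.9 and 11.4 CPM at 22 °C and 37.5, 29.9 and 32.5 CPM at 4 °C (log2 fold change 1.42 ± 0.17 (SE), edgeR adjusted p = 0.000841). Msmo1 and Cyp51, other enzymes of synthesis, also rose, and so did Abcg1, which exports cholesterol, with 19.1, 22.6 and 15.3 CPM at 22 °C and 59.4, 31.6 and 56.6 CPM at 4 °C (log2 fold change 1.38, edgeR adjusted p = 0.00653). Fdft1, squalene synthase, stands directly before Sqle in the pathway and went the other way, with 50.6, 44.0 and 36.1 CPM at 22 °C and 21.8, 19.3 and 21.1 CPM at 4 °C (log2 fold change -1.07 ± 0.22 (SE), edgeR adjusted p = 0.0109). The adjacent steps were opposite in every library, since each cold library was above all libraries at 22 °C for Sqle and below them all for Fdft1. Srebf2, the main regulator of the pathway, did not pass, at a log2 fold change of 0.42 (edgeR adjusted p = 0.0246). Without HFD 4 °C replicate 2 there were 2 lower genes.

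Of 33 genes of fatty acid oxidation, 7 were higher, 4 were lower and 22 did not pass, and the median log2 fold change was -0.18. Cpt1a, a form of carnitine palmitoyltransferase 1, had 52.5, 51.4 and 37.3 CPM at 22 °C and 96.3, 92.6 and 124 CPM at 4 °C (log2 fold change 1.15 ± 0.17 (SE), edgeR adjusted p = 0.0019). Acot2, Acot4 and Acot8, thioesterases of mitochondria and peroxisomes, had log2 fold changes of 1.79 (edgeR adjusted p = 0.00106), 1.21 (edgeR adjusted p = 0.00129) and 1.51 (edgeR adjusted p = 0.00106). Ehhadh, the peroxisomal bifunctional enzyme, added after its values were seen, had 57.0, 73.9 and 90.8 CPM at 22 °C and 675, 198 and 229 CPM at 4 °C (log2 fold change 2.31, edgeR adjusted p = 0.0107). HFD 4 °C replicate 1 was highest for Ehhadh, and all cold libraries were above those at 22 °C. The lower genes, Acaa2, Eci1, Hadh and Acat1, encode enzymes of the mitochondrial matrix. Acaa2, the medium-chain thiolase, had 2498, 2655 and 2260.5 CPM at 22 °C and 1164, 1708 and 1314 CPM at 4 °C (log2 fold change -0.82 ± 0.17 (SE), edgeR adjusted p = 0.0114) and lost its call without HFD 4 °C replicate 1 (-0.68 at the least change over the 12 fits). The count of lower members was unsteady. It was 0 without HFD 4 °C replicate 1 and with HFD replicates 1 and 2 alone. It was 1 without HFD 4 °C replicate 3, HFD 22 °C replicate 1 or HFD 22 °C replicate 2, and 7 without HFD 4 °C replicate 2. Leaving out any single NCD library gave 2.

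Glucose use had 4 higher and 5 lower of 37 genes, with a median of -0.06. Higher were the glucose transporter Slc2a1 (GLUT1) with 5.99, 7.21 and 7.48 CPM at 22 °C and 16.2, 11.9 and 12.2 CPM at 4 °C (log2 fold change 0.96, edgeR adjusted p = 0.00991), and Hk1, a hexokinase, with 87.8, 84.8 and 80.0 CPM at 22 °C and 154, 118 and 143 CPM at 4 °C (log2 fold change 0.71, edgeR adjusted p = 0.00557), as well as Pfkp and Pdp2. The lower members lay mostly at the entry of pyruvate into mitochondria. Pdk1, a kinase that inhibits pyruvate dehydrogenase, had 212, 172 and 162 CPM at 22 °C and 54.8, 83.8 and 66.1 CPM at 4 °C (log2 fold change -1.41 ± 0.18 (SE), edgeR adjusted p = 0.00112). Pdhb, the beta subunit of that enzyme, had 1022, 859 and 806 CPM at 22 °C and 409, 549 and 478 CPM at 4 °C (log2 fold change -0.90, edgeR adjusted p = 0.00961). Both passed in each of the 12 fits, whereas Pdha1, Mpc1 and Eno1 did not, and the count of lower members was 2 without HFD 4 °C replicate 1, HFD 4 °C replicate 3 or HFD 22 °C replicate 1 and 3 without HFD 22 °C replicate 2. Slc2a4, the insulin-responsive transporter GLUT4, had a log2 fold change of 0.06 (edgeR adjusted p = 0.828). The muscle-type genes Pfkm and Eno3 had -1.10 (edgeR adjusted p = 0.266) and -1.89 (edgeR adjusted p = 0.321), and both were lower with the replicate block (edgeR adjusted p = 0.00633 and 0.000988), under which 8 genes of the list were lower. The part of the uneven muscle markers in these values was not tested.

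Glycogen genes had 2 higher and 3 lower of 24, with a median of -0.44. Stbd1, a glycogen-binding protein, had 9.02, 11.4 and 8.78 CPM at 22 °C and 27.2, 15.5 and 24.8 CPM at 4 °C (log2 fold change 1.21, edgeR adjusted p = 0.00746), and Ugp2, which makes UDP-glucose for glycogen, had 290.5, 308 and 375 CPM at 22 °C and 726, 549.8 and 701 CPM at 4 °C (log2 fold change 1.02, edgeR adjusted p = 0.00752). Phka2, a regulatory subunit of phosphorylase kinase, had 99.9, 83.0 and 81.0 CPM at 22 °C and 38.0, 56.3 and 38.9 CPM at 4 °C (log2 fold change -0.99, edgeR adjusted p = 0.00686). Pygb, of glycogen breakdown, also fell, the lower count was 1 without HFD 4 °C replicate 1 or HFD 22 °C replicate 1, and 8 genes were lower with the replicate block. With that block 23 of the 30 skeletal muscle markers were lower too, and with the muscle score as a term 3 glycogen genes were. The part of muscle transcripts in the larger count was not tested.

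Breakdown of branched-chain amino acids, another fuel of brown fat, had 7 lower and 2 higher of 22 genes, and 4 of the 22 had a log2 fold change above 0 (median -0.47). Mccc2, a subunit of the carboxylase of leucine breakdown, had 126, 130.2 and 114 CPM at 22 °C and 60.1, 87.1 and 61.3 CPM at 4 °C (log2 fold change -0.83 ± 0.15 (SE), edgeR adjusted p = 0.00674). Ivd, isovaleryl-CoA dehydrogenase of the same route, had 215, 228 and 232 CPM at 22 °C and 98.4, 163 and 127 CPM at 4 °C (log2 fold change -0.80 ± 0.16 (SE), edgeR adjusted p = 0.00906). Bckdk, the kinase that inhibits the branched-chain dehydrogenase, had 159.8, 171 and 139 CPM at 22 °C and 84.8, 113 and 93.1 CPM at 4 °C (log2 fold change -0.69, edgeR adjusted p = 0.00847). In each, HFD 4 °C replicate 2 was the cold library closest to those at 22 °C, and no library overlapped. The higher members were Mcee, of propionate breakdown, with a log2 fold change of 0.83 (edgeR adjusted p = 0.00913), and Dbt, a core subunit of the dehydrogenase, with 0.68 (edgeR adjusted p = 0.01). The lower count was 3 without HFD 4 °C replicate 1, 4 without HFD 4 °C replicate 3 and 12 without HFD 4 °C replicate 2.

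Respiratory chain subunits encoded in the nucleus had 0 higher and 2 lower of 83, a called share of 2.41%, below that over all genes. Yet only 7 of the 83 had a log2 fold change above 0, and the median was -0.21. The summed level of the list was 42880 to 49858 CPM at 22 °C and 36093 to 45183.6 CPM at 4 °C, so the groups overlapped. Among the lower members was Uqcrq, of complex III. With the replicate block 7 members were lower. The count was 11 without HFD 4 °C replicate 2 and 0 without any single other HFD library but HFD 22 °C replicate 3. It was 1 without NCD 4 °C replicate 3 or any single NCD library at 22 °C. Mitochondrial ribosomal proteins had 4 higher and 2 lower of 78, with a median of 0.00. The number higher was 0 without HFD 22 °C replicate 3, 1 without HFD 4 °C replicate 3 and 2 without HFD 4 °C replicate 2 or HFD 22 °C replicate 2. The lower count was 1 without HFD 4 °C replicate 1 or 3 or HFD 22 °C replicate 1 or 2.

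No other of the 43 lists had as many higher members as the lysosomal genes. Of 38 genes for the lysosomal proton pump, cathepsins, other hydrolases and their regulators, 17 were higher, 0 were lower and 21 did not pass, with 32 of the 38 above 0 and a median log2 fold change of 0.49. Of the subunits of the vacuolar proton pump (V-ATPase), which acidifies the lysosome, Atp6v1d had 52.9, 51.2 and 56.8 CPM at 22 °C and 109.7, 84.5 and 98.0 CPM at 4 °C (log2 fold change 0.86 ± 0.10 (SE), edgeR adjusted p = 0.00101), Atp6v0b had 68.8, 77.1 and 67.5 CPM at 22 °C and 160.5, 116 and 138 CPM at 4 °C (log2 fold change 0.96 ± 0.12 (SE), edgeR adjusted p = 0.00109) and Atp6v1e1 had 156, 163 and 152 CPM at 22 °C and 270.4, 220.3 and 260.1 CPM at 4 °C (log2 fold change 0.67 ± 0.10 (SE), edgeR adjusted p = 0.00188). Atp6v0c, Atp6v1h, Atp6v1a, Atp6v1c1, Atp6v0a1 and Atp6v0d1 also rose. Subunits of both the membrane sector (V0) and the cytosolic sector (V1) were thus among them. Ctsz, a cathepsin, had 276, 399 and 338 CPM at 22 °C and 784, 843 and 792 CPM at 4 °C (log2 fold change 1.26 ± 0.15 (SE), edgeR adjusted p = 0.000972). The other genes with values below were chosen after they had been seen, for their promoters. Lamp1, a main protein of the lysosomal membrane, had 542, 611 and 541 CPM at 22 °C and 1023, 1025 and 1271 CPM at 4 °C (log2 fold change 0.97, edgeR adjusted p = 0.00235). Gla, alpha-galactosidase A, had 4.57, 4.65 and 4.94 CPM at 22 °C and 18.5, 8.37 and 17.2 CPM at 4 °C (log2 fold change 1.63, edgeR adjusted p = 0.00279). Ctsa, a serine carboxypeptidase that protects other lysosomal enzymes, had 52.2, 56.3 and 55.7 CPM at 22 °C and 109.8, 73.4 and 94.8 CPM at 4 °C (log2 fold change 0.76, edgeR adjusted p = 0.00758). Atp6v1a, the catalytic subunit of the pump, had 134, 133 and 137 CPM at 22 °C and 291, 204 and 259 CPM at 4 °C (log2 fold change 0.90, edgeR adjusted p = 0.00239). In Gla and Ctsa replicate 2 was the lowest cold library, and it still lay above all libraries at 22 °C. Members that did not pass include Ctsd, Ctsb and Npc2, with log2 fold changes of 0.14, -0.11 and -0.52, of which Npc2 was lower with the replicate block (edgeR adjusted p = 0.041). Tfeb, the master regulator of lysosomal genes, had 19.3, 23.3 and 27.6 CPM at 22 °C and 24.1, 25.4 and 26.7 CPM at 4 °C (log2 fold change 0.12, edgeR adjusted p = 0.669). The 17 ranged from 14 to 20 when 1 library was left out, 1 member was lower without NCD 4 °C replicate 2, and all genes with full values here passed in each of the 12 fits. On NCD 6 of the 38 were higher and 1 lower, with a median of 0.21, and 0 passed the interaction.

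**Figure D4:**
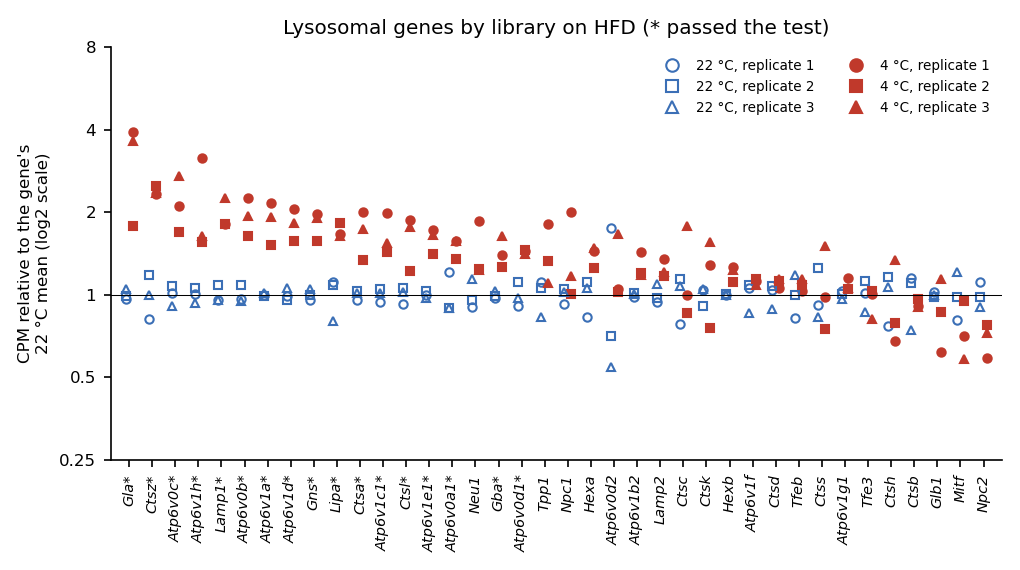
CPM of the 38 tested lysosomal genes in each HFD library divided by the gene's mean at 22 °C, on a log2 scale. Open blue symbols are libraries at 22 °C, filled red ones at 4 °C, the shape gives the replicate, and asterisks mark the 17 genes past the test. The genes are ordered by log2 fold change, and the red symbols lie above 1 for the genes on the left, with replicate 2 (square) often the lowest.

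The promoters of 4 of these genes are shown because they hold the E-box CACGTG, the core of the site through which TFEB and related factors act on lysosomal genes. Each window has 250 bases before and 50 after the RefSeq start on GRCm38.p6, written along the gene, with the E-box in capitals. The bases given are those of the first match, and Lamp1, Ctsa and Gla hold further ones. Their places are, for Lamp1, chr8:13158911-13159210, plus strand, bases 190 to 195; for Ctsa, chr2:164833523-164833822, plus strand, bases 239 to 244; for Gla, chrX:134600956-134601255, minus strand, bases 24 to 29, and for Atp6v1a, chr16:44139210-44139509, minus strand, bases 120 to 125.
Lamp1: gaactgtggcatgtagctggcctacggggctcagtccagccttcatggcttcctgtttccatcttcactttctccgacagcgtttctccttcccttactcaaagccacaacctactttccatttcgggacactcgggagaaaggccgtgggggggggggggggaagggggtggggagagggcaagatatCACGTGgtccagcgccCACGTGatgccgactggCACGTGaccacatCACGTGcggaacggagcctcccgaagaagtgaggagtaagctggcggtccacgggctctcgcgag
Ctsa: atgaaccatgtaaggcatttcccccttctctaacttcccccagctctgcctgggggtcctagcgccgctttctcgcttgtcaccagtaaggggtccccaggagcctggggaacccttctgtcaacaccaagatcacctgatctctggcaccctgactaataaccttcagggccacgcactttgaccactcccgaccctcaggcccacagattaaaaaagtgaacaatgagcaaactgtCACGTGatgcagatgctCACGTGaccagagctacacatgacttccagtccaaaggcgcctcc
Gla: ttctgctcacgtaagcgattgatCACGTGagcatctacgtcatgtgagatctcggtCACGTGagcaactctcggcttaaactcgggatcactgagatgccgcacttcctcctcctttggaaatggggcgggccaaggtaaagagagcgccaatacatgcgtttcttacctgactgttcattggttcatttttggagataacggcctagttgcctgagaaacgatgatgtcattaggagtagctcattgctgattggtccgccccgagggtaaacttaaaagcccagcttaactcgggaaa
Atp6v1a: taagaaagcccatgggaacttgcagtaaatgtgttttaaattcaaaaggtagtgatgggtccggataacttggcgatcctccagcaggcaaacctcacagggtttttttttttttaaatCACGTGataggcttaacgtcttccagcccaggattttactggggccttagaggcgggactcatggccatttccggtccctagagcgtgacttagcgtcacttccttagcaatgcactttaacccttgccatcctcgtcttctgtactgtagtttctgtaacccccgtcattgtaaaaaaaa
RefSeq windows were matched for 13 of the 17 higher lysosomal genes. Of their 16 windows 7 (43.8%) held CACGTG, which reads the same on both strands, against 2 of 19 (10.5%) of the lysosomal genes that did not pass. Over all 32851 windows the share was 7.15%, over those of tested genes 9.54%, and over those of all genes higher in the cold 12.7%. The match gives the letters only, and no binding was measured. The E-box was among several motifs searched in every gene list, split into higher, lower and not passed members. Heat shock, sterol, NR4A, PPAR, glucocorticoid and ATF4 elements were also searched, and their counts are not reported here. The contrast of the E-box shares comes from that wider search and was not tested.

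Stress response genes rose in part. Of 31 genes of the integrated stress response and of the unfolded protein response of the endoplasmic reticulum, 9 were higher and 1 lower, with a median log2 fold change of 0.45. The largest rises were in the synthesis of serine and one-carbon units. Mthfd2, a mitochondrial folate enzyme, had 2.19, 3.45 and 2.32 CPM at 22 °C and 63.7, 11.8 and 31.0 CPM at 4 °C (log2 fold change 3.74 ± 0.54 (SE), edgeR adjusted p = 0.00198), and Psat1, of serine synthesis, had 4.70, 4.70 and 4.80 CPM at 22 °C and 63.7, 7.57 and 35.2 CPM at 4 °C (log2 fold change 2.90 ± 0.55 (SE), edgeR adjusted p = 0.00775). The libraries at 22 °C were nearly level, while those at 4 °C differed several-fold, with replicate 1 highest and replicate 2 lowest. Among the chaperones and factors of the endoplasmic reticulum, Manf, a secreted stress-induced protein, had 29.8, 32.7 and 23.7 CPM at 22 °C and 59.2, 53.5 and 65.5 CPM at 4 °C (log2 fold change 1.05 ± 0.13 (SE), edgeR adjusted p = 0.00109), and Sdf2l1, a chaperone cofactor, had 1.67, 3.14 and 2.65 CPM at 22 °C and 6.35, 5.72 and 9.37 CPM at 4 °C (log2 fold change 1.52, edgeR adjusted p = 0.0093). Calr and Hspa5, the chaperones calreticulin and BiP, chosen after their values were seen, had 213, 268 and 189 CPM at 22 °C and 336, 342 and 408 CPM at 4 °C (log2 fold change 0.70, edgeR adjusted p = 0.00996) and 267, 286 and 300.1 CPM at 22 °C and 395, 369.9 and 519 CPM at 4 °C (log2 fold change 0.59, edgeR adjusted p = 0.0227). The call of Hspa5 was lost without HFD 4 °C replicate 3 or HFD 22 °C replicates 1 or 2, with log2 fold changes between 0.44 and 0.69. Aldh18a1, Atf5 and Asns completed the higher members, of which Asns lost its call without HFD 4 °C replicate 1 or HFD 22 °C replicate 3. Nupr1, a transcriptional regulator usually induced by stress, fell, with 14.4, 22.9 and 23.1 CPM at 22 °C (log2 fold change -1.45 ± 0.23 (SE), edgeR adjusted p = 0.00343). At 4 °C it had 5.68 and 6.41 CPM in replicates 2 and 3, and replicate 1 was higher but below all libraries at 22 °C. Atf4, a central transcription factor of the integrated stress response, had a log2 fold change of 0.77 (edgeR adjusted p = 0.163). With HFD replicates 1 and 2 alone, the higher count was 2, and over the 12 fits that left out 1 library it ranged from 6 to 13.

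The promoters of Hspa5 and Calr hold the full endoplasmic reticulum stress element, the site of ATF6 with NF-Y, and are shown for that reason. The windows are as above, with the element in capitals, for Hspa5 at chr2:34771840-34772139, plus strand, bases 186 to 204, and for Calr at chr8:84846882-84847181, minus strand, bases 89 to 107.
Hspa5: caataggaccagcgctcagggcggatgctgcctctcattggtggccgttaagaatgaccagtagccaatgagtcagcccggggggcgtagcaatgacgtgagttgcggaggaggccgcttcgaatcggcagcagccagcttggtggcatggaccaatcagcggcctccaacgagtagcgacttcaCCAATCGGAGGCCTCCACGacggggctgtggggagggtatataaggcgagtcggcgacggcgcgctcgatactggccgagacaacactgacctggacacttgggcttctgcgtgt
Calr: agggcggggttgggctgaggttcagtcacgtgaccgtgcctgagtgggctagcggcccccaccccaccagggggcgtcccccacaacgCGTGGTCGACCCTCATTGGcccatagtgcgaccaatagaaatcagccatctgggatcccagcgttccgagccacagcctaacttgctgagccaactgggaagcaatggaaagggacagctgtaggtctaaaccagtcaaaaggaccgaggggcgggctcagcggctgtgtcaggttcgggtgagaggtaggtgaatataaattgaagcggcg
The letters CCAAT and CCACG with 9 free bases between them were searched on both strands, and in Calr they lie on the opposite strand. They were found in 2 of 10 windows of the higher stress response genes, in 3 of 21 of those that did not pass (Creld2, Hsp90b1 and Pdia6), and in 0.119% of all windows. The element was thus not limited to members that passed. Over the 852 windows of genes higher in the cold 0.469% held it, those of Adcy3 and Canx besides the ones shown.

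Heat shock proteins and chaperones had 1 higher and 1 lower of 30 genes (6.67%). Hspa4, of the HSP110 family, had 219.7, 232 and 237 CPM at 22 °C and 347, 347 and 355 CPM at 4 °C (log2 fold change 0.61 ± 0.09 (SE), edgeR adjusted p = 0.00188). Its libraries within a temperature were nearly identical. Hspa12a, a distant relative of the HSP70 family, had 87.2, 68.9 and 60.7 CPM at 22 °C and 27.8, 30.2 and 34.6 CPM at 4 °C (log2 fold change -1.22 ± 0.20 (SE), edgeR adjusted p = 0.0034). The higher count was 2 without HFD 4 °C replicate 3 or NCD 4 °C replicate 3, and 2 genes were lower with the replicate block. Proteasome subunits had 2 higher and 0 lower of 43 (4.65%), with 36 of the 43 above 0 and a median of 0.19. The higher ones, Psma6 and Psma5, had log2 fold changes of 0.54 (edgeR adjusted p = 0.0266) and 0.53 (edgeR adjusted p = 0.028). The first lost its call without HFD 4 °C replicate 3 or HFD 22 °C replicates 1, 2 or 3 (0.41 to 0.62) and the second without HFD 4 °C replicates 1 or 3 or HFD 22 °C replicates 1, 2 or 3 (0.42 to 0.67). The list's count was 0 without HFD 4 °C replicate 3 or HFD 22 °C replicate 3, 1 without HFD 22 °C replicate 1 or HFD 22 °C replicate 2, and 5 without HFD 4 °C replicate 2.

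Antioxidant genes changed in both directions, 8 higher and 6 lower of 36. Hmox1, heme oxygenase 1, had 7.34, 11.6 and 13.8 CPM at 22 °C and 88.8, 35.8 and 41.3 CPM at 4 °C (log2 fold change 2.33 ± 0.39 (SE), edgeR adjusted p = 0.00434). Srxn1, sulfiredoxin, had 65.9, 68.1 and 57.5 CPM at 22 °C and 222, 127 and 214 CPM at 4 °C (log2 fold change 1.56 ± 0.19 (SE), edgeR adjusted p = 0.000972). Prdx6, a peroxiredoxin, had 200.2, 226 and 202 CPM at 22 °C and 524, 389.6 and 582 CPM at 4 °C (log2 fold change 1.25, edgeR adjusted p = 0.00139), and Txnrd1, the cytosolic thioredoxin reductase, had 89.7, 127 and 102 CPM at 22 °C and 202, 172 and 221 CPM at 4 °C (log2 fold change 0.90, edgeR adjusted p = 0.00382). All cold libraries were above all libraries at 22 °C for these genes. Gclm, Gss, Gsr and Mt1 also rose. Among the lower members, Gstm2, a glutathione transferase, had 26.9, 25.6 and 23.6 CPM at 22 °C and 14.6, 14.6 and 16.7 CPM at 4 °C (log2 fold change -0.73 ± 0.10 (SE), edgeR adjusted p = 0.00188), and the others were Gpx4, Gstm1, Gsta4, Txnrd2 and Gstt1. The number higher was 5 without HFD 4 °C replicate 1, HFD 4 °C replicate 3 or HFD 22 °C replicate 3. The lower count was 1 without HFD 4 °C replicate 1 or 3 or HFD 22 °C replicate 1 or 2, and 3 without NCD 4 °C replicate 1 or NCD 22 °C replicate 3.

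Secreted factors had 5 higher and 3 lower of 30. Bmp8b, which brown fat releases and which raises its own response to noradrenaline, had 4.44, 2.61 and 3.61 CPM at 22 °C and 41.7, 17.9 and 40.6 CPM at 4 °C (log2 fold change 3.23 ± 0.41 (SE), edgeR adjusted p = 0.00111). Fgf9, a fibroblast growth factor, had 3.74, 6.85 and 2.96 CPM at 22 °C and 11.1, 13.3 and 11.4 CPM at 4 °C (log2 fold change 1.41, edgeR adjusted p = 0.0114). Retn, the adipokine resistin, had 7.73, 7.42 and 8.98 CPM at 22 °C and 18.5, 12.7 and 13.3 CPM at 4 °C (log2 fold change 0.88, edgeR adjusted p = 0.00982). Ctsz, given above, and Cxcl14, a chemokine of active brown fat, were the other higher members. Lep, the satiety hormone leptin and a white adipocyte marker, had 269.5, 227 and 72.5 CPM at 22 °C and 16.6, 16.3 and 42.0 CPM at 4 °C (log2 fold change -2.92 ± 0.85 (SE), edgeR adjusted p = 0.0473). Replicate 3 was the lowest library at 22 °C and the highest at 4 °C for Lep, so its groups came close without overlap. Of 7 white adipocyte markers tested, 1 was lower (Lep), 1 was higher and 5 did not pass, with a median of -0.2. Adipoq, adiponectin, had 592, 630.3 and 531 CPM at 22 °C and 286, 459 and 344 CPM at 4 °C (log2 fold change -0.69 ± 0.17 (SE), edgeR adjusted p = 0.0232), and Rbp4, a retinol carrier, had 53.1, 37.6 and 35.1 CPM at 22 °C and 13.5, 25.0 and 19.5 CPM at 4 °C (log2 fold change -1.12, edgeR adjusted p = 0.0197). These falls were less steady than the rises. Lep lost its call without HFD 4 °C replicates 1, 2 or 3, HFD 22 °C replicates 1 or 2 or NCD 22 °C replicates 1, 2 or 3, with log2 fold changes between -3.53 and -2.53, Adipoq without HFD 4 °C replicates 1 or 3 or HFD 22 °C replicates 1 or 2 (-0.89 to -0.52) and Rbp4 without HFD 4 °C replicates 1 or 3 or HFD 22 °C replicate 1 (-1.34 to -0.88). The count of lower members was 0 without HFD 4 °C replicate 1 or 3 or HFD 22 °C replicate 1, 1 without HFD 22 °C replicate 2, and 7 with the replicate block. Fgf21, a hormone induced by mitochondrial stress, did not pass, with 2.00, 1.73 and 1.44 CPM at 22 °C and 35.2, 2.03 and 2.75 CPM at 4 °C (log2 fold change 2.96, edgeR adjusted p = 0.0578), and its high value came from 1 library.

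Insulin and IGF signalling had 3 higher and 1 lower of 30 genes. Sgk2, a serum- and glucocorticoid-regulated kinase, had 1.87, 2.09 and 2.77 CPM at 22 °C and 70.5, 30.5 and 28.2 CPM at 4 °C, a 18.9-fold rise (log2 fold change 4.24 ± 0.49 (SE), edgeR adjusted p = 0.000809), and its relative Sgk1 had 80.5, 63.6 and 77.2 CPM at 22 °C and 208, 152 and 130.0 CPM at 4 °C (log2 fold change 1.15 ± 0.18 (SE), edgeR adjusted p = 0.00278). Irs2, an insulin receptor substrate, had 20.9, 24.0 and 26.1 CPM at 22 °C and 106, 97.1 and 53.4 CPM at 4 °C (log2 fold change 1.85 ± 0.45 (SE), edgeR adjusted p = 0.0234), while Irs3, another such substrate of rodent fat, had 26.0, 28.6 and 35.0 CPM at 22 °C and 6.30, 11.2 and 5.43 CPM at 4 °C (log2 fold change -1.98 ± 0.40 (SE), edgeR adjusted p = 0.00991). The substrates thus moved in opposite directions, and the groups did not overlap for either. The call of Irs2 was lost without HFD 4 °C replicates 1 or 2 or HFD 22 °C replicates 1, 2 or 3, with log2 fold changes between 1.69 and 2.11. The insulin receptor gene Insr had 0.35 (edgeR adjusted p = 0.0683), and 2 genes of this list were lower without HFD 4 °C replicate 2 or with the replicate block. Of 20 circadian clock genes, 0 were higher and 1 was lower, Bhlhe40 (DEC1), a repressor in the clock, with 104, 93.9 and 80.3 CPM at 22 °C and 22.1, 43.0 and 35.5 CPM at 4 °C (log2 fold change -1.47 ± 0.27 (SE), edgeR adjusted p = 0.00703), and the lower count was 2 without NCD 4 °C replicate 3 while 1 gene was higher with the replicate block. Of 27 adipogenic transcription factors and co-regulators, 1 was higher and 0 lower, Ncoa1 (SRC-1), with 91.9, 87.2 and 85.8 CPM at 22 °C and 211, 174 and 136 CPM at 4 °C (log2 fold change 0.97 ± 0.14 (SE), edgeR adjusted p = 0.00165). The higher count was 2 without HFD 22 °C replicate 1, and 1 gene was lower without HFD 4 °C replicate 2, without HFD 22 °C replicate 3 and with the replicate block. Pparg, the master regulator of adipocytes, had 327, 302 and 254 CPM at 22 °C and 302, 318 and 239.5 CPM at 4 °C (log2 fold change -0.04, edgeR adjusted p = 0.876), with overlapping groups.

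Cell cycle genes leaned upwards, since 39 of 41 had a log2 fold change above 0 and the median was 0.67, but only 5 passed upwards and 1 downwards. Tyms, thymidylate synthase, had 6.51, 7.21 and 7.45 CPM at 22 °C and 11.6, 11.8 and 12.5 CPM at 4 °C (log2 fold change 0.76 ± 0.13 (SE), edgeR adjusted p = 0.00441), and Rrm1, a subunit of ribonucleotide reductase, had 38.9, 38.0 and 36.9 CPM at 22 °C and 60.1, 51.9 and 68.5 CPM at 4 °C (log2 fold change 0.67, edgeR adjusted p = 0.00642). Both supply nucleotides for DNA synthesis, and Mcm2, Mcm3 and Mcm5, of the replicative helicase, were the other higher members. The lower member was Cdkn1b, an inhibitor of the cycle, with a log2 fold change of -0.51 (edgeR adjusted p = 0.0396), and it passed only in the 2 fits without HFD 4 °C replicate 1 or HFD 22 °C replicate 1 of the 12. Mki67 and Top2a, markers of dividing cells, had 0.90 (edgeR adjusted p = 0.263) and 1.48 (edgeR adjusted p = 0.0993). The number higher was 8 without HFD 4 °C replicate 1, and 2 without HFD 4 °C replicate 3 or any single HFD library at 22 °C. It was 3 without NCD 22 °C replicate 2 or 3.

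Collagen chains had 3 higher and 4 lower of 33, with a median of -0.51 and 7 of the 33 above 0. Col4a1 and Col4a2, the chains of the basement membrane collagen that surrounds vessels and adipocytes, had 935, 840.0 and 712 CPM at 22 °C and 1823, 1409 and 1799 CPM at 4 °C (log2 fold change 1.02 ± 0.16 (SE), edgeR adjusted p = 0.00322) and 648, 588 and 517 CPM at 22 °C and 1159, 996 and 1186 CPM at 4 °C (log2 fold change 0.93 ± 0.13 (SE), edgeR adjusted p = 0.00174). Both chains were higher in every cold library. Col13a1, a transmembrane collagen, was the third. Col23a1 and Col20a1, minor collagens, had log2 fold changes of -1.29 (edgeR adjusted p = 0.00726) and -1.02 (edgeR adjusted p = 0.0126), and Col6a6 and Col18a1 were the other lower members. In the library rich in muscle markers Col6a6 stood at 5.56 CPM, against 1.10 and 1.20 CPM in the others at 22 °C. Without HFD 4 °C replicate 3 the lower count was 9, without HFD 4 °C replicate 1 it was 2, and with the replicate block 8 chains were lower.

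The called shares of markers of other cell types are read against 9.58% over all genes tested. They were 11.1% of 18 macrophage and 18.8% of 16 endothelial markers. For neutrophils and mast cells the share was 22.2% of 9, for lymphocytes 16.7% of 6, and for Schwann cells and nerve 9.09% of 11. Of 18 macrophage markers 2 were higher and 0 lower, and 14 had a log2 fold change above 0, with a median of 0.45. Their summed level was 191.1 to 273.9 CPM at 22 °C and 206.1 to 483.9 CPM at 4 °C. Gpnmb, a glycoprotein of lipid-laden macrophages and lysosomes, had 3.67, 5.49 and 6.75 CPM at 22 °C and 173, 23.2 and 79.1 CPM at 4 °C (log2 fold change 4.09 ± 0.61 (SE), edgeR adjusted p = 0.00229). Cd68, a lysosomal membrane protein of macrophages, had 4.32, 5.59 and 2.60 CPM at 22 °C and 16.7, 4.89 and 19.2 CPM at 4 °C (log2 fold change 1.72 ± 0.45 (SE), edgeR adjusted p = 0.0319), with overlapping groups. Replicate 2 was the lowest cold library for both. The general macrophage genes Adgre1 and Csf1r had log2 fold changes of -0.17 (edgeR adjusted p = 0.771) and 0.01 (edgeR adjusted p = 0.979). The part of these cells in the rise of the lysosomal list, whose summed level was 5398 to 6359 CPM at 22 °C and 7829 to 8329 CPM at 4 °C, was not tested. Without HFD 22 °C replicate 3 1 marker was lower. The call of Cd68 was lost without HFD 4 °C replicates 1 or 3 or HFD 22 °C replicates 1 or 3, with log2 fold changes between 1.38 and 2.12, and with the replicate block (edgeR adjusted p = 0.0608).

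Endothelial markers had 3 higher and 0 lower of 16, and 14 of the 16 were above 0. Eng, endoglin of the vessel wall, had 99.1, 76.3 and 56.1 CPM at 22 °C and 146, 147 and 169.7 CPM at 4 °C (log2 fold change 1.00 ± 0.17 (SE), edgeR adjusted p = 0.00453), and Sox17 and Sox18, endothelial transcription factors, were the others. The count was 1 without any single HFD library but HFD 22 °C replicate 2, and without NCD 22 °C replicate 2. The summed endothelial level was 1349 to 1671.5 CPM at 22 °C and 1788 to 2055 CPM at 4 °C, without overlap. The basement membrane collagens Col4a1 and Col4a2 were also higher at 4 °C. The part of endothelial cells in the rise of these collagens was not tested. Neutrophil and mast cell markers had 1 higher and 1 lower of 9, with 8 of the 9 above 0 and a median of 0.43. The higher one, S100a8, a calprotectin subunit of neutrophils, had 0.322, 0.261 and 0.141 CPM at 22 °C and 3.96, 0.837 and 0.583 CPM at 4 °C (log2 fold change 2.92 ± 0.77 (SE), edgeR adjusted p = 0.0325), and its call was lost without HFD 4 °C replicate 1 or HFD 22 °C replicates 1, 2 or 3 (1.62 to 3.36). Kit, the receptor of stem cell factor on mast cells, had 22.9, 19.3 and 7.06 CPM at 22 °C and 2.52, 2.82 and 3.43 CPM at 4 °C (log2 fold change -2.47 ± 0.46 (SE), edgeR adjusted p = 0.00733). Ighm, the heavy chain of IgM from B cells, had 73.7, 66.0 and 33.9 CPM at 22 °C and 13.2, 26.8 and 28.6 CPM at 4 °C (log2 fold change -1.34 ± 0.35 (SE), edgeR adjusted p = 0.0326) and lost its call without HFD 4 °C replicates 1, 2 or 3, HFD 22 °C replicates 1 or 2 or NCD 22 °C replicate 1 (-1.61 to -1.04). Erythroid, hepatic and epithelial markers gave 0 calls in 7, 3 and 1 genes tested.

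Among lncRNA genes the balance was reversed. Cold changed 225 of 3433 lncRNA genes tested (6.55%), of which 60 were higher (1.75%) and 165 lower (4.81%), while of 13196 coding genes (10.4% changed) 841 were higher (6.37%) and 534 lower (4.05%). The median log2 fold change was -0.405 over the lncRNA genes and 0.02 over the coding genes. The count of 225 was 101 without HFD 4 °C replicate 1, 127 without HFD 4 °C replicate 3, 141 without HFD 22 °C replicate 1, 133 without HFD 22 °C replicate 2 and 115 without HFD 22 °C replicate 3. Of these genes 30 had the type lncRNA and the rest the type noncoding of the RNAcentral set. On NCD 66 of them also passed in the same direction.

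**Figure D5:**
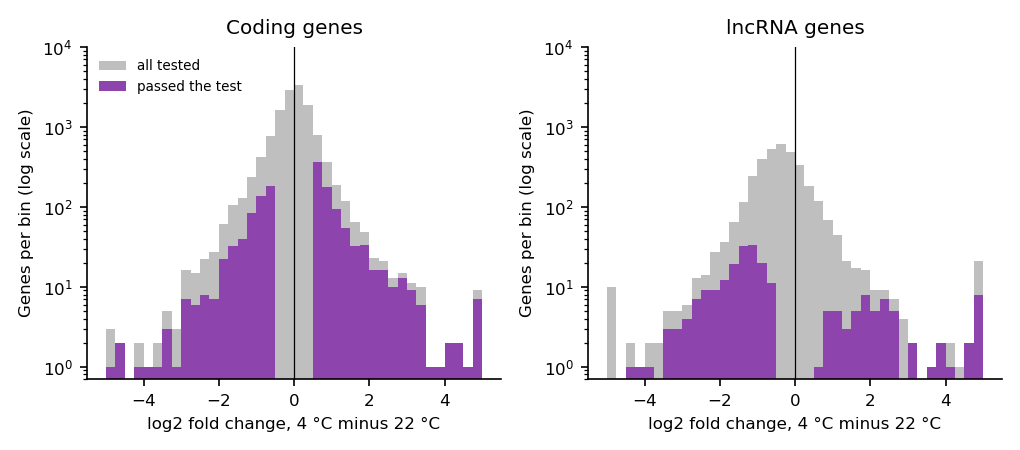
Number of genes per bin of log2 fold change (0.25 wide, values beyond 5 drawn in the last bin, log scale) between 4 °C and 22 °C on HFD, for coding genes (left) and lncRNA genes (right). Grey bars hold all genes tested and purple bars those past the test. The purple lncRNA genes lie mostly left of 0 (165 lower, 60 higher), the coding genes mostly right (534 lower, 841 higher).

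Lncbate10, an lncRNA of brown fat (QNCMUSG00027458, chromosome 18, 61470225 to 61484607, minus strand), had 24.1, 33.6 and 31.5 CPM at 22 °C and 224, 158 and 145 CPM at 4 °C, a 5.9-fold rise (log2 fold change 2.56 ± 0.21 (SE), edgeR adjusted p = 0.000168). Ctcflos (QNCMUSG00034077, chromosome 2, 173110818 to 173133204, plus strand), whose name marks it as opposite to Ctcfl, had 117, 133 and 143 CPM at 22 °C and 286, 246 and 182 CPM at 4 °C (log2 fold change 0.86 ± 0.20 (SE), edgeR adjusted p = 0.0202), and its call was lost without HFD 4 °C replicate 1 or HFD 22 °C replicates 1 or 2, with log2 fold changes between 0.73 and 1.03. Each cold library of both genes was above all libraries at 22 °C. Gm15551 (QNCMUSG00036823, chromosome 3, 126667329 to 126669044, minus strand), which lies within the coding gene Camk2d on its opposite strand, had 4.25, 3.19 and 1.04 CPM at 22 °C and 0.405, 0.528 and 0.629 CPM at 4 °C (log2 fold change -2.39 ± 0.54 (SE), edgeR adjusted p = 0.0172). It lost its call without HFD 4 °C replicate 1 or HFD 22 °C replicates 1 or 2, with log2 fold changes between -2.80 and -1.93. Camk2d itself had 57.8, 48.4 and 55.9 CPM at 22 °C and 74.5, 51.5 and 48.4 CPM at 4 °C (log2 fold change 0.10, edgeR adjusted p = 0.724), with overlapping groups. H19, an imprinted lncRNA that muscle also expresses, had 16.6, 22.3 and 196 CPM at 22 °C and 6.17, 8.37 and 85.9 CPM at 4 °C (log2 fold change -1.22, edgeR adjusted p = 0.555). Its libraries were set apart by replicate number more than by temperature, replicate 3 being highest at both temperatures, and with the replicate block it was lower in the cold (-1.33, edgeR adjusted p = 0.00396).

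Gm39038, an lncRNA gene that lies within the span of the falling gene Ntrk3 on the same strand, had counts of 8, 12 and 50 (22 °C) and of 2, 3 and 2 (4 °C), 12.5-fold lower with a 95% counting interval of 5.77 to 32.3 (edgeR adjusted p = 0.0431), and passed in 3 of the 12 fits that left out 1 library, not without HFD 4 °C replicates 1, 2 or 3, HFD 22 °C replicates 1, 2 or 3, NCD 4 °C replicate 1 or NCD 22 °C replicates 2 or 3. Its reads and those of Ntrk3 may not be told apart. Outside these named transcripts, the largest rises of lncRNA genes were from near 0. The gene 2700046G09Rik (chromosome 19, 32389216 to 32391190, plus strand) had counts of 0, 0 and 0 (22 °C) and of 30, 47 and 60 (4 °C), at least 12.1-fold higher against a floor of 3 counts per library (edgeR adjusted p = 0.019). QNCMUSG00027088 had counts of 0, 0 and 0 (22 °C) and of 22, 20 and 30 (4 °C), at least 6.38-fold higher (edgeR adjusted p = 0.0226). QNCMUSG00020610 had counts of 0, 0 and 1 (22 °C) and of 16, 20 and 31 (4 °C), 53.4-fold higher with a 95% counting interval of 9.27 to 2140.0 (edgeR adjusted p = 0.00961). These genes were at or near 0 in the HFD libraries at 22 °C, but on NCD 2700046G09Rik had 2.15 ± 0.405 CPM (SD, n = 3) at 22 °C and 1.51 ± 1.42 CPM at 4 °C, against 1.61 ± 0.402 CPM at 4 °C on HFD. Such intervals cover counting error only. QNCMUSG00014400 and QNCMUSG00001974 completed the 5 largest rises. The largest falls included QNCMUSG00021530 with 3.16, 1.05 and 5.17 CPM at 22 °C and 0.135, 0.352 and 0.140 CPM at 4 °C (log2 fold change -3.93, edgeR adjusted p = 0.00477), QNCMUSG00031111 with 3.41, 1.73 and 2.34 CPM at 22 °C and 0.0900, 0.176 and 0.350 CPM at 4 °C (log2 fold change -3.47, edgeR adjusted p = 0.00498) and QNCMUSG00050271 with 16.0, 15.1 and 7.48 CPM at 22 °C and 1.04, 2.42 and 0.769 CPM at 4 °C (log2 fold change -3.21, edgeR adjusted p = 0.0091). These last genes passed in each of the 12 fits that left out 1 library, as did QNCMUSG00020610. The call of 2700046G09Rik was lost without HFD 22 °C replicate 3, and that of QNCMUSG00027088 without HFD 4 °C replicate 1 or HFD 22 °C replicates 1, 2 or 3. Snhg18, a host gene of small nucleolar RNA, had 4.90, 5.59 and 4.52 CPM at 22 °C and 2.97, 2.73 and 2.59 CPM at 4 °C (log2 fold change -0.86, edgeR adjusted p = 0.00876), and of 16 such host genes tested 0 were higher and 2 lower, or 1 lower without HFD 4 °C replicate 1 or 3 or HFD 22 °C replicate 1 or 3.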

How the data were processed

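Total RNA of mouse iBAT was depleted of ribosomal RNA, made into TruSeq libraries and sequenced from both ends. Reads were trimmed by the authors with cutadapt, and counts were estimated with salmon against GENCODE M22 and RNAcentral 5 on GRCm38 and deposited as whole-number estimated counts per gene (tool versions are not given in the sources used here). Salmon divides reads shared by near-identical transcripts by estimate, so values of close paralogs are uncertain. Columns were matched to samples by the titles in the labels, and 0 columns of other series were present. Gene coordinates came from GENCODE M21 on GRCm38, and promoters from RefSeq on GRCm38.p6. Promoters were searched for fixed motifs, of which the cAMP response element, the E-box and the endoplasmic reticulum stress element are reported.

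Of 61210 rows, 16737 genes passed edgeR's filterByExpr (minimum count 10). The 12 libraries were fitted together as 4 groups of 3 with TMM scaling in edgeR 4.0.16 (R 4.3.3, limma 3.58.1), so that NCD libraries share the estimate of spread, and quasi-likelihood tests were two-sided with Benjamini-Hochberg adjustment over all genes tested. A call needed an adjusted p under 0.05 and a log2 fold change over 0.5 in size, and the interaction between diet and cold an adjusted p under 0.05. DESeq2 1.42.0, other filters and scalings, a batch term, a replicate block within diet, a test against the minimum fold (glmTreat) and fits without each library were alternatives, and a muscle score term and HFD replicates 1 and 2 alone were added after seeing the data. The script was tested on simulated data. P-values measure the spread between these libraries, whose source animals are not numbered in the labels.

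The replicate numbers were taken to pair libraries within a diet, because deviations from the group means correlated over 0.1 in every pair (0.155, 0.217 and 0.386 on HFD, and 0.219, 0.456 and 0.281 on NCD). The pairing comes from this check and from the batches, not from a statement in the labels. Libraries of unlike replicate number were not correlated, so the check cannot tell pairing from a shared batch. On each diet the highest correlation belonged to the replicate whose libraries had the most muscle markers at both temperatures. These were HFD replicate 3 (7.13% of the counts at 22 °C and 1.35% at 4 °C) and NCD replicate 2 (4.33% and 2.56%). The part of muscle markers in the correlations was not tested. Calls made with the replicate block rest on this assumed pairing. Depth, 15136861 to 37257097 counts on HFD, limits genes of few counts, and intervals of ratios cover counting error only. The members and the 43 gene lists were chosen with earlier results of these data known. Named were the 10 coding and 5 lncRNA genes with the largest rises and falls (mean of at least 10 normalized counts, groups not overlapping), up to 4 called members per list and direction by smallest p, genes the study names for iBAT, members that did not pass, as values, and those said to be chosen after their values were seen. Other called members are named without values to complete a count, and some members are not reported here. Folds against a group at 0 counts use a floor of 3 counts per library.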

Additional observations from a re-analysis of the deposited data

How the results depend on the processing

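The count of genes changed by cold on HFD, 1603, stayed within 1.5 times with DESeq2, DESeq2's size factors, other count filters, a batch term, the replicate block, the muscle score term and no minimum fold. It was 855 with only the 6 HFD libraries (550 higher, 305 lower, 101 lncRNA genes), 416 with batch 1 alone (258, 158 and 32), 357 with glmTreat (218, 139 and 62) and 695 with HFD replicates 1 and 2 alone (391, 304 and 65). These fits hold fewer libraries or test against the minimum fold itself. Leaving out 1 library gave 1013 to 1672 changed genes, 615 to 1011 higher, 310 to 670 lower and 101 to 225 lncRNA genes. The replicate block gave 1130 lower genes, and restriction to the type lncRNA 30 lncRNA genes. Beside those named in the report, the replicate block changed no other call among the genes given there with values. Genes passing the interaction, 0 in the main test, were 27 with no filter on counts, 9 with the muscle score term, 58 with DESeq2, 2 with the replicate block and 0 to 22 with 1 library left out. The cause of these differences was not tested. With HFD replicates 1 and 2 alone the higher counts were 6 for thermogenic, 12 for lysosomal and 2 for stress response genes, and 10 genes of fatty acid synthesis were lower. Direction turned for 3 genes that had not passed: Pparg (-0.13 to 0.08 with 1 library left out, above 0 without HFD 4 °C replicate 3 or HFD 22 °C replicate 1), H19 (0.48 with the muscle score term, -3.40 to 0.80 with 1 library left out, above 0 without HFD 22 °C replicate 3) and Camk2d (-0.08 to 0.23, below 0 without HFD 4 °C replicate 1). With 3 libraries per group, genes of few counts have wide intervals.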

Other observations

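The called share was 18.2% of mural cell markers and 9.09% of fibroblast markers, against 9.58% of all genes tested. Of 11 mural cell markers, Rgs5, a pericyte gene, was lower with 645, 615 and 574 CPM at 22 °C and 377, 494 and 389 CPM at 4 °C (log2 fold change -0.54, edgeR adjusted p = 0.0243), and Cnn1, a smooth muscle calponin, was higher with 2.00, 3.14 and 1.78 CPM at 22 °C and 3.11, 8.01 and 4.50 CPM at 4 °C (log2 fold change 1.18, edgeR adjusted p = 0.0405). The calls were lost without HFD 4 °C replicates 1 or 3 or HFD 22 °C replicates 1 or 2 for Rgs5 (-0.67 to -0.44) and without HFD 4 °C replicates 2 or 3, HFD 22 °C replicates 1 or 3, NCD 4 °C replicate 2 or NCD 22 °C replicates 2 or 3 for Cnn1 (0.74 to 1.47). Of 11 fibroblast markers 1 was higher (Ly6a, 0 higher without any single HFD library but HFD 22 °C replicate 2, or without NCD 4 °C replicate 1 or 2 or NCD 22 °C replicate 2) and 0 lower (3 without HFD 4 °C replicate 3), with 2 lower under the replicate block. Of 41 matrix remodelling genes 2 were higher (Mmp3 and Adamts1) and 0 lower, or 4 higher and 1 lower under the replicate block. The higher matrix genes numbered 0 without HFD 22 °C replicate 1 or 2. They numbered 1 without any single other library but HFD 4 °C replicate 2 or NCD 4 °C replicate 3, and 2 were lower without HFD 4 °C replicate 3.

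Cytosolic ribosomal proteins had 2 higher (Rps28 and Rpl37) and 0 lower of 79, with 64 of the 79 above 0 and a median log2 fold change of 0.13. The higher count was 6 without HFD 4 °C replicate 2 and 1 without HFD 4 °C replicate 3, and 1 gene was lower with the replicate block.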
